A study of Mus musculus with 22 samples.

Results

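Transcripts of 8 genes of inflammatory cell death, Ninj1, Mpeg1, Gsdmd, Casp1, Casp4, Nlrp3, Aim2 and Pycard, were followed in cells sorted from the ileum after bone marrow transplantation. They were taken by name from the 23091 genes listed in at least 1 of the 22 tables, a gene missing from a table counting as 0 there, and were described by group, by cell class and by detection of Lcn2. Pyroptosis is a lytic form of cell death. A sensor such as Nlrp3, which reacts to disturbed ion balance and membranes, or Aim2, which binds DNA in the cytosol, recruits the adaptor Pycard (ASC), and the assembled inflammasome activates caspase-1. Caspase-1 matures interleukin-1β and cleaves gasdermin D, whose fragments form pores, while caspase-11, the product of Casp4 in the mouse, binds lipopolysaccharide in the cytosol and cleaves the same substrate. Ninj1 carries out the final rupture of the plasma membrane, and Mpeg1 encodes perforin-2, a pore-forming protein that myeloid cells use against ingested bacteria. In neutrophils gasdermin D can be cleaved without death of the cell, and this pathway is known there for interleukin-1β release and for the release of chromatin traps.

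The tested mice were BALB/c recipients, 7 to 9 weeks old, conditioned with 5 Gy on each of 2 occasions, then grafted with marrow (5000000 cells) and 400000 T cells of C57BL/6 donors (aGVHD, 12 libraries). The control recipients had the same strain, age range, irradiation and marrow but received no T cells (10 libraries). Both groups therefore carried an allogeneic graft, and donors were female and 7 to 10 weeks old. Leukocytes were isolated from a 4 cm segment of the terminal ileum on day 21 and sorted as CD45+H2kb+CD11b+Ly6G+, which selects donor leukocytes with surface markers of neutrophils. Which mouse gave which library is not stated, and p-values therefore reflect the scatter among libraries alone, part of which may be technical. The titles form a dated set (8 aGVHD and 6 control libraries) and a G1 set (4 and 4), and what separates them is not given.

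Libraries held 45607 to 360054 transcripts in all. Of 4224 barcodes, 1383 had at least 500 transcripts and were kept as cells, 1025 in aGVHD and 358 in control libraries. An aGVHD library held 74 to 95 of them and a control library 11 to 60, with 12, 12 and 11 in control replicates 5, 9 and 10. All 22 tables number their barcodes alike, so a shared number marks no shared cell. Neutrophil markers defined 6 clusters with 785 cells, 606 in aGVHD and 179 in control libraries. The gate also held 123 macrophage/monocyte-like cells, 33 cells of an epithelial-like and 33 of a B or plasma cell-like cluster, while 409 stayed unnamed. The clusters were built without the 8 genes. Genes with a symbol other than a Gm, Rik or mitochondrial model took 18.5% to 62.7% of the transcripts of a library.

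The promoter windows of Ninj1 and Mpeg1 are shown because these genes had many transcripts and stand far apart in CpG content. They are the 250 bases before the start of the gene in RefSeq (build GRCm38.p6), with CpG dinucleotides in capitals. For the counts themselves no build is named in the labels. The Ninj1 window lies at chr13:49187279-49187528 and the Mpeg1 window at chr19:12460520-12460769, both on the plus strand.
Ninj1: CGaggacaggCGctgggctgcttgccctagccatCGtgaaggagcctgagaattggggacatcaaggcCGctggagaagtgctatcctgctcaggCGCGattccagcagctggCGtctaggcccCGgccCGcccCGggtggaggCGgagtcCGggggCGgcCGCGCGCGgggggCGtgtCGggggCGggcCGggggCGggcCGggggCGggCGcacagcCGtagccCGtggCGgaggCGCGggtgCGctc
Mpeg1: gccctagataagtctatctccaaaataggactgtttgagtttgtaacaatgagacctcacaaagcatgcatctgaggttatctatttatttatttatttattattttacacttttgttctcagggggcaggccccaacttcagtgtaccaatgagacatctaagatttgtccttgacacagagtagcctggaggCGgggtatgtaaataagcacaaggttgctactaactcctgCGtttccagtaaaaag
The Ninj1 window held 31 CpG and 76% G or C, and 5.19% of the 32851 windows in the table held at least as many CpG. The Mpeg1 window held 2 CpG, and the other members with a window, Casp1, Casp4, Nlrp3, Aim2 and Pycard, held 1 to 4, against a median of 6 over all windows. On both strands, no member window matched the interferon-stimulated response element (GAAA, any 2 bases, GAAA) or the gamma-activated site TTCNNNGAA, which 2.98% and 7.02% of all windows hold. The NF-kB consensus was matched in both Casp4 windows, which overlap each other, and in 1 of 2 Nlrp3 windows, and in 7.25% of all windows; some of these matches overlap on opposite strands. The ETS core GAGGAA, bound by PU.1, was found in Casp1, Aim2, Pycard and 1 of 2 Nlrp3 windows, and in 23.3% of all windows. These matches describe letters only.

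Between aGVHD and control libraries, no member passed the test over all gated cells. Transcripts were summed per library and compared as log2 CPM with limma and voom weights, with the title set as a covariate. CPM here is the transcripts of a gene scaled to the library's total after that total was adjusted. The adjustment was a factor from the trimmed mean of gene ratios between libraries, over genes past the low-count filter. Of 2382 genes tested, 61 were higher in aGVHD (2.56%) and 64 lower (2.69%) at an adjusted p under 0.05, and 530 had an unadjusted p under 0.05. Of the 7 members past the low-count filter, 0 were called in either direction, beside 5.25% of all genes, and 6 of the 7 estimates were positive with a median log2 difference of 0.28, against -0.01 over all genes tested. In such sums, fewer cells of a type and less RNA per cell cannot be told apart.

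Ninj1, the membrane rupture protein, ranged from 186 over a median of 299 to 405 CPM in aGVHD libraries, against 112, 204 and 286 CPM in control libraries. The groups overlapped, and 7 of 12 aGVHD libraries stood above the highest control library. The means were 280 ± 72.3 CPM in aGVHD (SD, n = 12) and 198 ± 59.5 CPM in control libraries (SD, n = 10), a log2 difference of 0.43 (SE 0.19, limma adjusted p = 0.179). It was 0.56 in the dated set alone and 0.23 in the G1 set alone (limma adjusted p = 0.231 and 0.905). With scaling factors taken from all genes before the filter, the median over all genes was 0.21, against -0.01, and the Ninj1 difference was 0.72 (limma adjusted p = 0.0766).

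Mpeg1, the perforin-2 gene, ran from 245 over 299 to 569 CPM in aGVHD libraries and from 55.4 over 285 to 502 CPM in control libraries. Only 1 aGVHD library lay above the highest control library, and the lowest value of all was control replicate 10, with 11 cells. The log2 difference was 0.39 (SE 0.25, limma adjusted p = 0.371), with 0.41 among dated and 0.37 among G1 libraries. Gsdmd, the substrate that forms the gasdermin pore, had 38.7, 52.3 and 85.3 CPM as lowest, median and highest aGVHD values, against 0, 45.7 and 80.01 CPM in control libraries. Its difference was 0.05 (SE 0.22, limma adjusted p = 0.920), and its sign differed between the dated set (0.23) and the G1 set (-0.01).

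**Figure D1:**
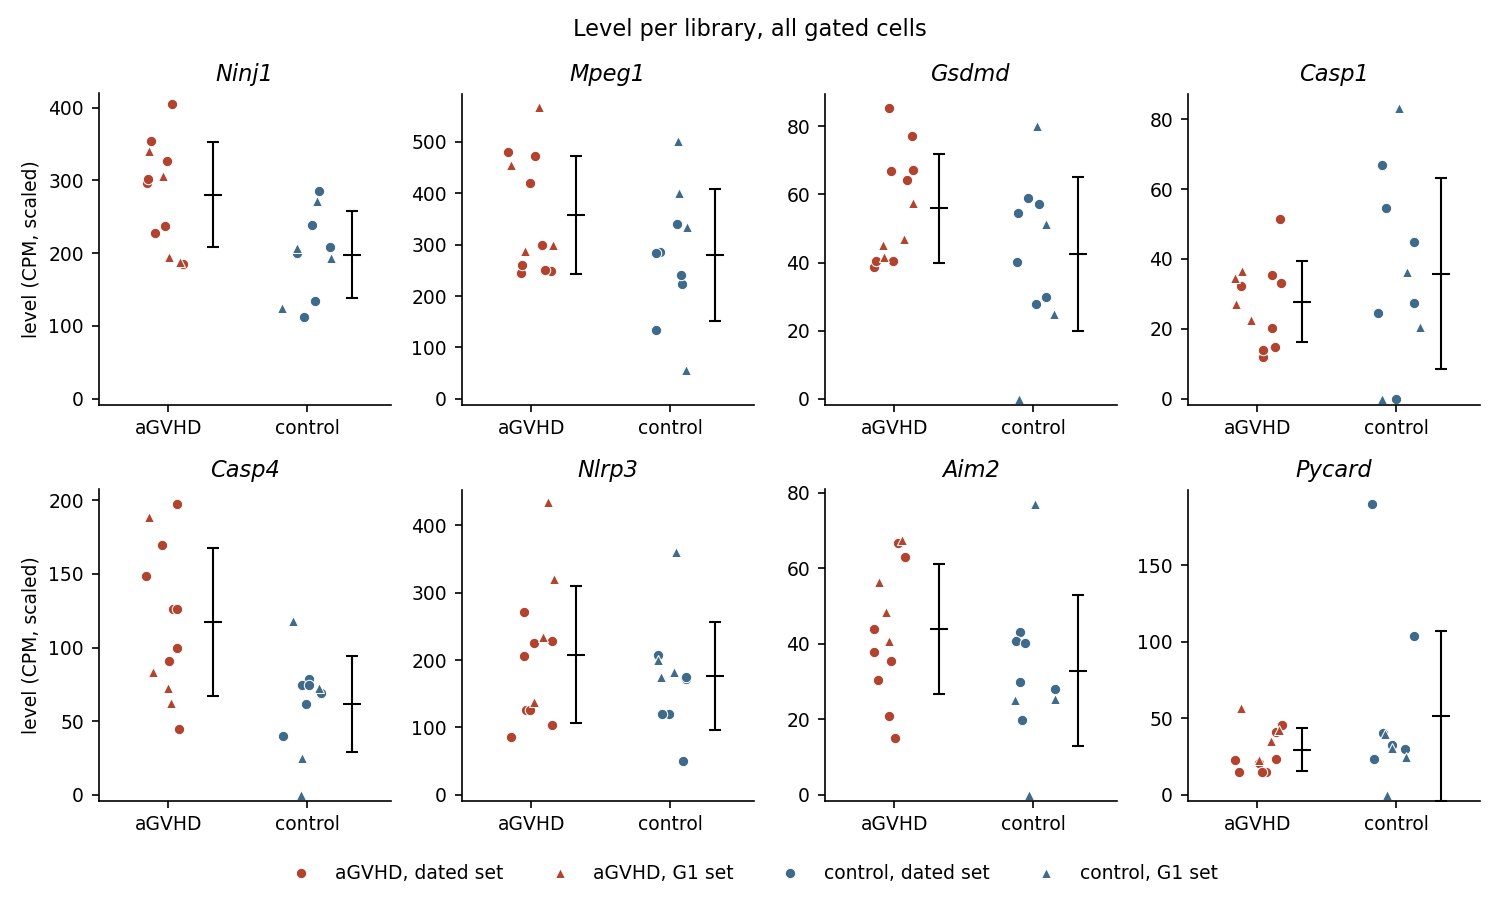
Level of each gene per library over all gated cells, in scaled CPM on the vertical axis, for 12 aGVHD and 10 control libraries (circles, dated set; triangles, G1 set; bars, mean and SD). The groups overlap for every gene, and 6 of 12 aGVHD libraries have more Casp4 than the highest control library.

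Among the caspases, Casp4, the lipopolysaccharide receptor, had the largest estimate of the 7. Its lowest, median and highest values were 44.5, 113 and 197 CPM in aGVHD libraries, against 0, 71.1 and 118 CPM in control libraries. Of 12 aGVHD libraries, 11 stood above the control mean and 6 above the highest control library. The log2 difference was 0.59 (SE 0.27, limma adjusted p = 0.196), 0.77 in the dated set alone and 0.57 in the G1 set alone (limma adjusted p = 0.186 and 0.799). Without the low-count filter it was 0.73 and passed (limma adjusted p = 0.0474), in a fit whose median over all genes was -0.99. Casp1, which cleaves pro-interleukin-1β, had 11.9, 29.7 and 51.3 CPM in aGVHD libraries and 0, 31.9 and 83.1 CPM in control libraries. Its estimate was the only negative one of the 7 (-0.29, SE 0.28, limma adjusted p = 0.5998), from 110 transcripts in aGVHD and 56 in control libraries, of which 2 held none.

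Of the sensors, Nlrp3 ran from 85.3 over 215 to 434 CPM in aGVHD libraries and from 50.2 over 175 to 360 CPM in control libraries. The difference was 0.28 (SE 0.26, limma adjusted p = 0.588), and both groups were higher in the G1 set (means of 282 CPM in aGVHD and 229 CPM in control) than in the dated set (171 CPM in aGVHD and 141 CPM in control). Aim2 had 15.2, 42.3 and 67.4 CPM in aGVHD libraries, against 0, 28.9 and 77.01 CPM in control libraries (0.13, SE 0.27, limma adjusted p = 0.836). A gene passed the filter if enough libraries reached a minimum level, and Casp1 passed with 166 transcripts in all. The adaptor Pycard, with 115 transcripts in aGVHD and 90 in control libraries, did not pass. Its values were 14.8, 23.2 and 56.4 CPM in aGVHD libraries, against 0, 31.7 and 190 CPM in control libraries. Control replicates 1 and 4, with 190 and 104 CPM, lay above every aGVHD library. These 2 libraries held 7 and 8 of the 33 epithelial-like cells (14.3% and 19.05% of their cells), against 0 to 5 in an aGVHD library, and the part of these cells in the Pycard values was not tested. Pycard overlaps the antisense gene Gm45205 in the GENCODE vM21 annotation, and whether the counting used strand is not given.

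Cell type markers moved between the groups over all gated cells. Of 24 neutrophil markers tested, 10 were higher in aGVHD, among them S100a9 (log2 difference 1.53, limma adjusted p = 0.0112) and Cxcr2 (0.96, limma adjusted p = 0.0476). The summed neutrophil markers ran from 14611 to 50428 CPM in aGVHD libraries and from 9033 to 16750 CPM in control libraries, and 0 of the 29 in the tables were at 0. Of 11 macrophage/monocyte markers tested, 0 passed, with sums of 559 to 4928 CPM in aGVHD and 222 to 5680 CPM in control libraries. Of 4 dendritic cell markers tested, 3 were lower in aGVHD, as were 1 of 5 epithelial markers, Fabp6, and 1 of 2 B or plasma cell markers, Ighm (-2.06, limma adjusted p = 0.0250). The part of these differences in the members' values over all gated cells was not tested.

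Within neutrophil-like cells, no member passed either. Sums over these cells in the 18 libraries with at least 10 of them (12 aGVHD, 6 control) gave 1592 tested genes, of which 0 (0%) passed and 152 (9.55%) had an unadjusted p under 0.05 in limma. Limma without voom weights also called 0. Of 5 members tested, 1 estimate was positive, and their median was -0.03, as it was over all genes. Ninj1 had 282, 459 and 706 CPM in aGVHD neutrophil-like cells, against 404, 422 and 565 CPM in control (-0.03, SE 0.20, limma adjusted p = 0.978). Mpeg1 had 248, 411 and 624 CPM in aGVHD and 359, 384 and 559 CPM in control (-0.03, SE 0.21, limma adjusted p = 0.978). The aGVHD libraries reached both below and above the control libraries for both genes.

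Casp4 had 89.1, 192 and 302 CPM in aGVHD neutrophil-like cells, against 99.3, 124 and 223 CPM in control. The log2 difference was 0.31 (SE 0.27, limma adjusted p = 0.741), and the sets differed in sign, with means of 194 (aGVHD) and 115 CPM (control) among dated libraries and of 154 (aGVHD) and 189 CPM (control) among G1 libraries. Nlrp3 had 148, 333 and 555 CPM in aGVHD and 199, 455 and 490 CPM in control neutrophil-like cells (-0.36, SE 0.23, limma adjusted p = 0.650). Gsdmd differed by -0.25 (SE 0.30, limma adjusted p = 0.825). Casp1, Aim2 and Pycard were below the filter, with 64, 108 and 43 transcripts in aGVHD and 8, 32 and 5 in control neutrophil-like cells. Only 2 control libraries of the G1 set had enough of these cells.

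**Figure D2:**
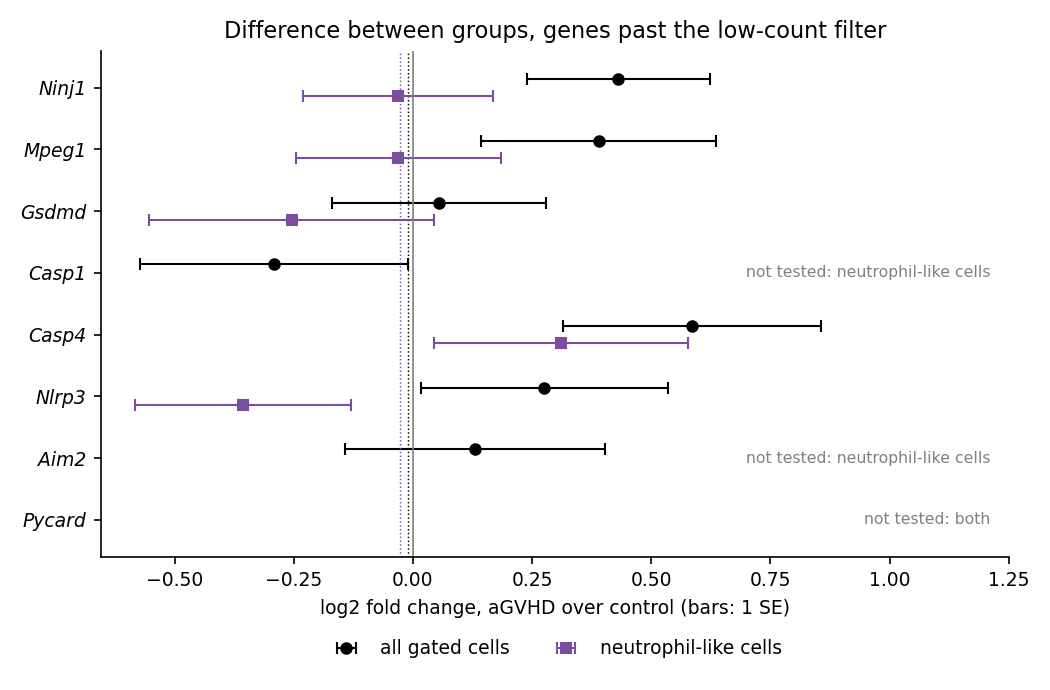
Log2 fold change of aGVHD over control (horizontal axis, bars of 1 SE) for members past the low-count filter, over all gated cells (circles) and within neutrophil-like cells (squares); dotted lines mark the median over all genes tested. Ninj1 and Mpeg1 lie at 0.43 and 0.39 over all cells and at -0.03 within neutrophil-like cells, and none of the values passed the test.

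The levels of the 8 genes differed between cell classes. Here a level is the CPM of a gene among transcripts of named genes only, pooled over both groups, with an exact 95% Poisson interval that covers counting error only. Classes were made by clustering, so these values are a description with no test. Named genes made up 63.1% of transcripts in the neutrophil-like cluster led by Ngp, Camp and Ltf. They made up 41.7% to 52.8% in the other neutrophil-like clusters, 57.6% in macrophage/monocyte-like cells and 42.1% in epithelial-like cells. Ratios between classes would therefore differ among all transcripts. In each library the block of 96 barcodes with fewer transcripts was taken to have received no cell. Any barcode there with at least 500 transcripts was still kept as a cell. The rest of that block, the unused barcodes, held 104 CPM of Ninj1, 207 of Mpeg1, 90.7 of Nlrp3 and 58.3 of Aim2. Where these transcripts came from was not tested.

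Ninj1 was at 891 CPM in neutrophil-like cells (836 to 948), at 403 CPM in B or plasma cell-like cells (246 to 622), at 400 CPM in macrophage/monocyte-like cells (343 to 463) and at 142 CPM in epithelial-like cells (94.6 to 206). The intervals of the B or plasma cell-like and macrophage/monocyte-like cells overlap, as do those of the epithelial-like cells and the unused barcodes. In all 17 libraries with at least 3 cells of both classes, Ninj1 was lower in macrophage/monocyte-like than in neutrophil-like cells. Mpeg1 had the opposite order at the top, with 1176 CPM in macrophage/monocyte-like cells (1077 to 1282) and 873 CPM in neutrophil-like cells (818 to 930), and was higher in the first in 12 of 17 libraries. Nlrp3, Casp4 and Aim2 were at 377, 184 and 31.8 CPM in macrophage/monocyte-like cells, against 712, 379 and 128 CPM in neutrophil-like cells. In these libraries the macrophage/monocyte-like value was the lower one in 16, 15 and 16 of 17. Aim2 in macrophage/monocyte-like cells came from 14 transcripts and lay below its level in the unused barcodes.

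Pycard and Casp1, the adaptor and its caspase, had their highest pooled levels in epithelial-like cells. Pycard was at 366 CPM in epithelial-like cells (286 to 461), 143 CPM in macrophage/monocyte-like cells (110 to 183) and 44.6 CPM in neutrophil-like cells (32.99 to 58.95). It was higher in macrophage/monocyte-like than in neutrophil-like cells in 15 of 17 libraries, and higher in epithelial-like than in neutrophil-like cells in 4 of 4. Casp1 was at 142 CPM in epithelial-like cells (94.6 to 206), 86.3 CPM in macrophage/monocyte-like cells (61.1 to 118) and 68.2 CPM in neutrophil-like cells (53.7 to 85.5), and neighbouring intervals overlap. Casp1 was higher in epithelial-like than in neutrophil-like cells in 3 of 4 libraries. Gsdmd was at 143 CPM in macrophage/monocyte-like and 148 CPM in neutrophil-like cells, with intervals that nearly coincide. The epithelial-like cells numbered 33 and had a median of 13908 transcripts, against 2281 in neutrophil-like cells.

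**Figure D3:**
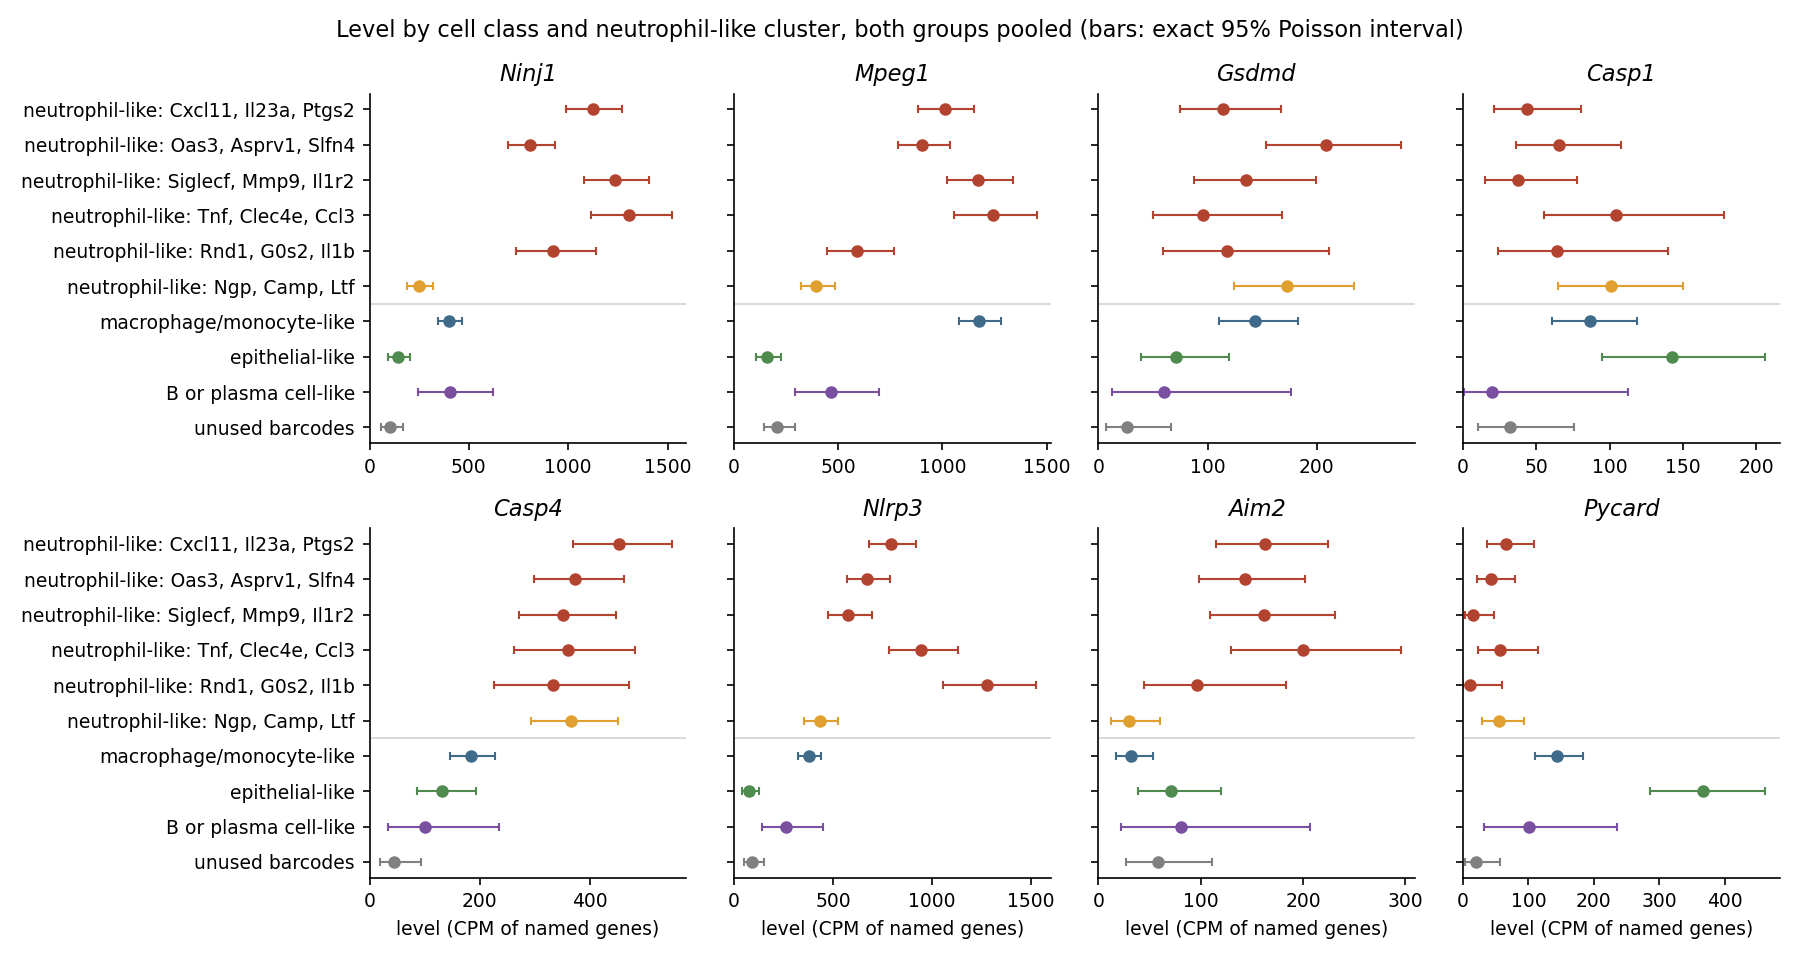
Level of each gene in 6 neutrophil-like clusters (named by leading genes), 3 other classes and unused barcodes, as CPM of named genes on the horizontal axis, both groups pooled, with exact 95% Poisson intervals. Ninj1, Mpeg1, Nlrp3 and Aim2 are low in the cluster led by Ngp, Camp and Ltf (248, 395, 433 and 29.4 CPM), and Pycard is highest in epithelial-like cells (366 CPM).

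Within neutrophil-like cells, the cluster led by the granule genes Ngp, Camp and Ltf had lower levels of Ninj1, Mpeg1, Nlrp3 and Aim2 than the rest. It held 98 cells, 94 of them from aGVHD libraries, and such granule genes mark less mature neutrophils. Ninj1 was at 248 CPM in this cluster, against 1068 CPM in all other neutrophil-like cells, Mpeg1 at 395 against 1004 CPM, Nlrp3 at 433 against 790 CPM, and Aim2 at 29.4 against 156 CPM. Compared within the 7 aGVHD libraries that had 3 or more cells of both kinds, the granule-gene cluster was lower in 7 for Ninj1, in 6 for Mpeg1, in 6 for Nlrp3 and in 7 for Aim2. Aim2 had only 7 transcripts in that cluster in these libraries, and its pooled level there lay below that of the unused barcodes. Casp4 was at 366 against 383 CPM and Gsdmd at 172 against 142 CPM, with overlapping intervals. Because named genes made up more of the transcripts in this cluster, such near values hold for the scale of named genes only. Nlrp3 was at 1276 CPM in the cluster led by Rnd1, G0s2 and Il1b (1057 to 1527), above the 433 to 945 CPM of the other 5, and Ninj1 and Mpeg1 were at 1305 and 1241 CPM in the cluster led by Tnf, Clec4e and Ccl3.

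Detection of the members was counted per cell. After thinning each cell to 500 transcripts, Casp4 was found in 8.20% ± 4.48 of neutrophil-like cells of aGVHD libraries (SD, n = 12) and in 3.79% ± 3.12 of those of control libraries (SD, n = 6), and without thinning in 34.4% (aGVHD) and 22.1% (control). In epithelial-like cells, thinned alike, Casp4 was in 0 of 33 and Mpeg1 in 2 (6.06%). Ninj1 was found after thinning in 18.3% ± 8.91 of aGVHD and 17.2% ± 4.98 of control neutrophil-like cells. Of 785 neutrophil-like cells at full depth, 81 held none of the 8 genes, 145 held 1, 190 held 2, 209 held 3, 107 held 4 and 0 held all 8. Nlrp3, Pycard and Casp1, the parts of 1 inflammasome, were found together in 3 cells (0.382%), whose median depth was 6366 transcripts. No more than the detection of transcripts is described by these shares.

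Lcn2, the siderophore-binding granule protein named in the study's title, divided the neutrophil-like cells of aGVHD libraries. A cell was Lcn2-positive if it held at least 1 Lcn2 transcript after thinning to 500. In aGVHD, 6 libraries had 5 or more cells of each status and gave 104 positive and 247 negative cells, compared within libraries. Of 320 genes tested, 22 were higher in positive cells (6.88%) and 11 lower (3.44%), and of the 2 members past the filter, 0 were called, beside 10.3% of all genes. Lcn2 itself is among the 22, a call fixed by the way the cells were split. Mpeg1 had 14 transcripts in positive and 74 in negative thinned cells, at 347 ± 249 and 668 ± 266 CPM (SD, n = 6 each), lower in positive cells in 5 of 6 libraries (log2 difference -1.05, SE 0.43, limma adjusted p = 0.0982). Nlrp3 differed by 0.02 (SE 0.37, limma adjusted p = 0.975).

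The Mpeg1 call depended on how the levels were made. It passed with scaling factors from all genes before the filter (-1.38, limma adjusted p = 0.0251), a setting that was used first and replaced after its results had been seen. It also passed in cells thinned to 1000 transcripts (-0.78, limma adjusted p = 0.0267), but not without thinning (-0.50, limma adjusted p = 0.118). With the status from thinned cells and the levels from all transcripts of the same cells, an alternative added after the data were seen, more members could be tested. Ninj1, below the filter in cells thinned to 500 transcripts (13 transcripts in positive and 59 in negative cells), passed in 3 planned settings: at 1000 transcripts (-0.80, limma adjusted p = 0.0292), without thinning (-0.70, limma adjusted p = 0.0399) and with at least 3 cells of each status (-1.25, limma adjusted p = 0.0155). It did not pass with a second seed of the thinning (-0.98, limma adjusted p = 0.111) or without the low-count filter (-0.94, limma adjusted p = 0.0975).

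In those whole cells Ninj1 was at 253, 573 and 883 CPM of named genes as lowest, median and highest of 6 positive sums, against 682, 952 and 1240 CPM in negative sums. It was lower in positive cells in 6 of 6 libraries (log2 difference -0.91, SE 0.25, limma adjusted p = 0.00829). Here and in the next paragraph, the library counts use CPM of named genes. The log2 differences and p-values come from the fit over all transcripts with trimmed-mean scaling. Mpeg1 was at 241, 430 and 2011 CPM in positive and 620, 929 and 1257 CPM in negative cells. It was lower in positive cells in 4 of 6 libraries (-0.77, SE 0.25, limma adjusted p = 0.0395), and aGVHD replicate 8, with 5 positive cells, held the highest value. The granule-gene cluster supplied 56.7% of positive and 9.31% of negative cells. Lcn2 was among the marker genes used for clustering and is a leading gene of that cluster, so part of this overlap is built in. Leaving the cluster out therefore also selects on Lcn2, and it left 10 sums against 12. Without that cluster the Ninj1 difference was -0.08 (limma adjusted p = 0.977) and the Mpeg1 difference -0.87 (limma adjusted p = 0.504).

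Gsdmd and Casp1 had estimates of the other sign in whole cells, and neither passed. Gsdmd had 40 transcripts in positive and 36 in negative cells (0.81, SE 0.41, limma adjusted p = 0.226), higher in positive cells in 5 of 6 libraries. Casp1 had 26 and 20 transcripts (1.08, SE 0.50, limma adjusted p = 0.175), also higher in 5 of 6. Of the transcripts in positive cells, aGVHD replicate 7 alone held 22 for Gsdmd and 17 for Casp1. Every other library held 1 to 3 Casp1 transcripts in positive cells, so the count of libraries rests on few transcripts. Casp4 and Nlrp3 differed by -0.17 and -0.34 (limma adjusted p = 0.773 and 0.419). Aim2 and Pycard stayed below the filter, with 20 and 13 transcripts in positive cells and 49 and 19 in negative cells.

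**Figure D4:**
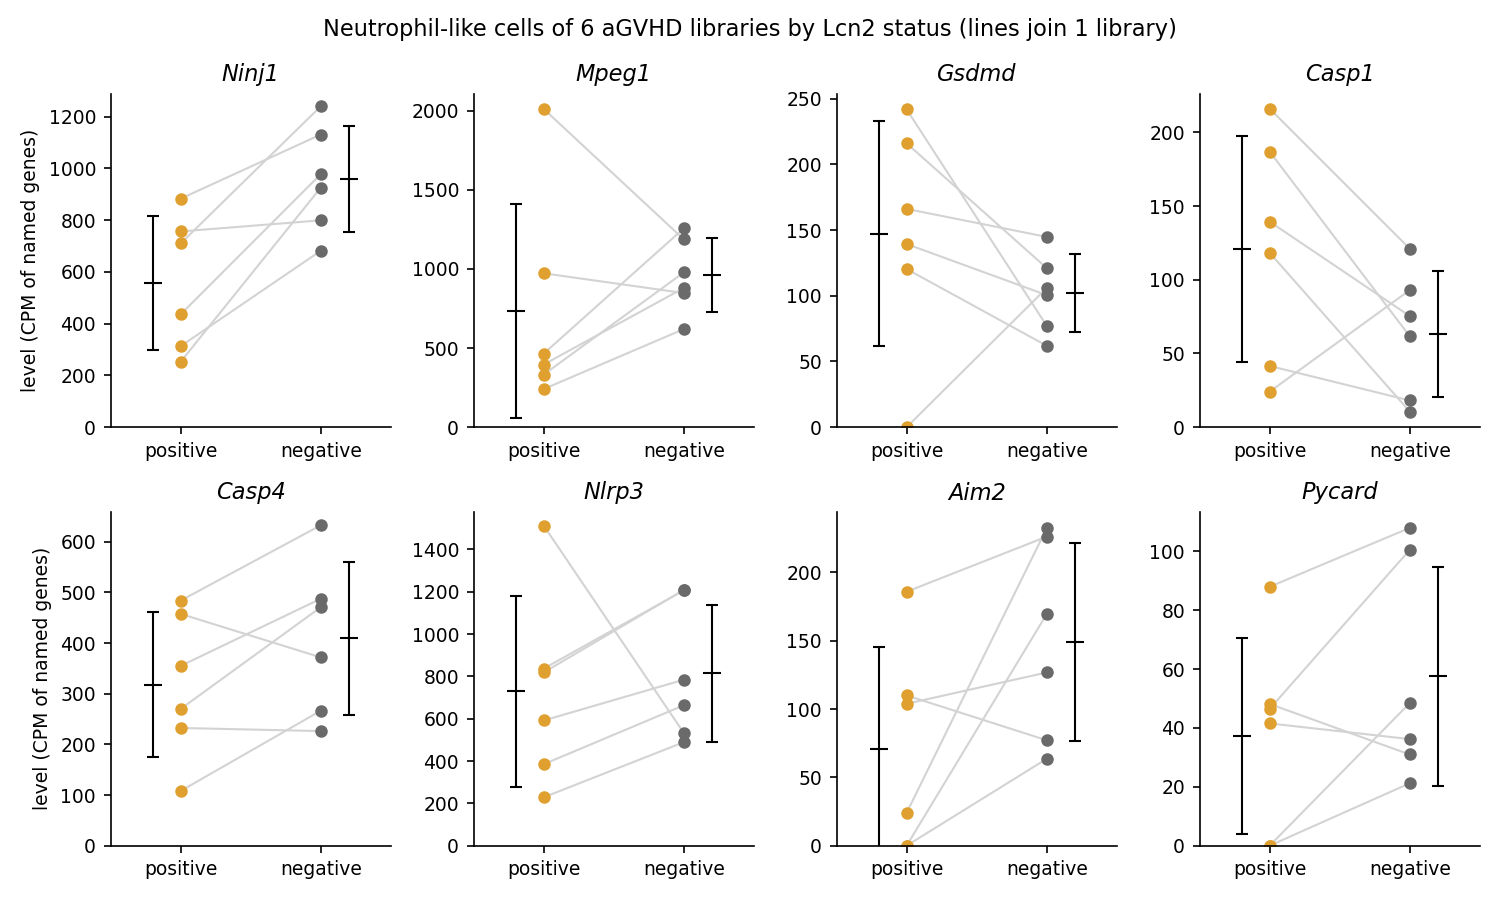
Level of each gene, as CPM of named genes on the vertical axis, in Lcn2-positive and Lcn2-negative neutrophil-like cells of 6 aGVHD libraries (lines join the sums of 1 library; bars, mean and SD). Ninj1 is lower in positive cells in 6 of 6 libraries and Mpeg1 in 4 of 6.

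Further genes of the pathway were read over all gated cells from lists chosen by function. Of the AIM2-like receptors, 5 were tested and 1 was higher in aGVHD: Ifi204, an interferon-inducible DNA sensor, at 91.6 ± 24.8 CPM in aGVHD and 49.3 ± 29.9 CPM in control libraries (log2 difference 1.27, SE 0.30, limma adjusted p = 0.0210). It belongs to a family of similar genes whose reads the counting may have split, so its value is uncertain. Of 5 interleukin-1 family genes, 1 was higher, Il1rn, the receptor antagonist, at 852 ± 188 CPM in aGVHD and 537 ± 142 CPM in control libraries (0.64, SE 0.16, limma adjusted p = 0.0257). Il1b was at 4151 ± 1662 CPM in aGVHD and 3931 ± 733 CPM in control libraries and did not pass (0.02, limma adjusted p = 0.966). Of 7 guanylate-binding and immunity-related GTPases, which act on bacterial membranes and vacuoles, 1 was higher, Gbp7, at 257 ± 91.03 CPM in aGVHD and 125 ± 68.7 CPM in control libraries (1.02, SE 0.25, limma adjusted p = 0.0245). For each of these 3 genes, 12 of 12 aGVHD libraries exceeded the control mean. The count adds no support, since the test that picked the genes used the same values. It was also 12 of 12 for Il1r2, Irf1, Txnip and Gbp2, which did not pass (limma adjusted p = 0.0760, 0.0674, 0.0746 and 0.0863). Within neutrophil-like cells Ifi204, Il1rn and Gbp7 differed by 1.22, 0.04 and 0.68 and did not pass (limma adjusted p = 0.341, 0.965 and 0.426).

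In the other lists none passed in either direction. These were 4 inflammasome sensors tested, with Nlrp3 and Mefv the most abundant, 3 caspases (Casp4 and Casp8), 3 gasdermins and other pore formers (Mpeg1 and Ninj1), 8 priming genes, 3 necroptosis genes (Cflar and Zbp1), 2 caspase inhibitors and regulators (Birc3 and Xiap) and 5 ESCRT repair genes (Chmp4b and Vps4b). Of the priming genes, Cd14, a co-receptor for lipopolysaccharide, was at 872 ± 504 CPM in aGVHD and 461 ± 317 CPM in control libraries (0.96, limma adjusted p = 0.139), and the interferon-induced factor Irf1 at 540 ± 272 CPM in aGVHD and 282 ± 158 CPM in control libraries (0.82, limma adjusted p = 0.0674). Among the GTPases Gbp2 was at 478 ± 220 CPM in aGVHD and 267 ± 157 CPM in control libraries (0.83, limma adjusted p = 0.0863). The median log2 difference was 0.63 over the GTPases and 0.45 over the interleukin-1 family, against -0.01 over all genes and 0.76 over the neutrophil markers. Within neutrophil-like cells it was 0.26 over the GTPases, with 4 of 7 positive, against -0.03 over all genes. Over the interleukin-1 family it was -0.10 there, with 1 of 5 positive. By Lcn2 status in thinned cells, Cd14 was higher in positive cells (0.72, SE 0.23, limma adjusted p = 0.0212) and Il1rn lower (-0.96, SE 0.29, limma adjusted p = 0.0117), and none of the other list genes tested there passed. Without the granule-gene cluster, in 10 sums against 12, these were 0.59 and -0.61 (limma adjusted p = 0.541 and 0.673).

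Across the 22 libraries, the genes most like each tested member in log2 CPM were found among 2092 named genes. The points share library, depth, cell make-up and the group difference, and the values are descriptions. For Ninj1 these were Marcksl1 (Pearson r = 0.86), Ncf1 (0.82) and Cd9 (0.77), which stayed at 0.84, 0.70 and 0.62 without the 2 farthest libraries. For Mpeg1 they were Sqstm1 (0.80), Il6ra (0.79) and Adprh (0.78), which came to 0.49, 0.33 and 0.57 without 2 libraries. For Gsdmd they were Sirpa (0.71), Cd164 (0.70) and Il6ra (0.70), with 0.32, 0.32 and 0.16 without 2 libraries, so these relations rest on the 2 libraries left out. Casp1 was most like Pebp1 (0.82), Eif3c (0.80) and Sod1 (0.79), Casp4 most like March7 (0.85), Pkm (0.81) and Cnppd1 (0.80), Nlrp3 most like Cyth1 (0.72), Ccrl2 (0.71) and Rbms1 (0.71), and Aim2 most like Zeb2 (0.68), Ehbp1l1 (0.67) and Cd84 (0.66). Without the 2 farthest libraries Rbms1 and Ehbp1l1 both came to 0.41, and the other 10 of these genes to between 0.63 and 0.80. Between the members, Casp1 and Mpeg1 had r = -0.66 and Gsdmd and Casp4 r = 0.55, with Spearman's rho of -0.43 and 0.21.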

How the data were processed

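Cells were profiled by CEL-Seq2, which counts 3' ends with molecular identifiers, so levels do not scale with gene length. Per the submitters' processing notes, the authors used bcl2fastq 2.17.1.14 and BWA 0.6.2-r126; genome build and counting tool are not named there. The deposited tables hold, for each gene and barcode, an estimated count of transcripts: each of 1419098 values above 0 matches a whole number of identifiers drawn from 4096 (tolerance 1e-06). They were rounded, and a minimum of 500 transcripts defined cells. In each library 96 barcodes were taken as used, from the totals.

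Cells were clustered on Pearson residuals of 94 marker genes (12 components, 15 neighbours, Leiden resolution 1.0, leidenalg 0.10.2), and named where at least 3 markers of a type were raised 1.5-fold, no other type had as many raised or more among the 10 leading genes, no other type with 3 raised had any among them, and named genes made up at least 25% of transcripts; a cluster with a median depth under 0.33 of its libraries' medians also needed a leading marker. These settings were chosen after seeing the data, and the members and gene lists with earlier results of these data known. No doublet caller was run; cells over 4 times their library's median total were left out as an alternative. Shares have exact binomial intervals, which cover counting error only.

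Sums per library were tested with limma 3.58.1 (R 4.3.3), with voom weights and trimmed-mean scaling. P-values were adjusted after Benjamini and Hochberg, with a threshold of 0.05. A filter asked for 15 transcripts overall. It also asked for a level of 10 transcripts in a library of median size, reached in a number of sums set by the design. The form of the filter and its place before the scaling were settled after results had been seen, with an earlier account of these data at hand; the settings used first are among the alternatives. No negative binomial count model was run on these estimates. Every member is described. From each list the genes that passed and the 2 most abundant were named, and for each member the 3 genes with the highest correlation of at least 0.6. The tests were tried on simulated data first, with a spread between sums that was set (dispersion 0.2). In each simulation 200 genes were changed, with 2626 genes tested over all gated cells, 1520 in neutrophil-like cells and 334 by Lcn2 status. The changed genes were thus a far larger share by Lcn2 status, where the data gave 33 calls among 320 genes. No difference between libraries was simulated either, so the shares called by Lcn2 status may not hold for the real comparison. Of changes of log2 1, the fits called 33.7% over all gated cells, 25.9% in neutrophil-like cells and 33.7% by Lcn2 status. Of changes of log2 2 they called 97.6%, 95.9% and 86.7%. Members that were not called may thus still differ.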

Additional observations from a re-analysis of the deposited data

Results flagged for a closer look

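Nlrp3 over all gated cells was at 360 CPM in control replicate 10, against a median of 175 CPM over the 10 control libraries, and its gap to the next library was 0.49 of the group's range. That library held 11 kept cells, and its Gsdmd, Casp4, Aim2 and Pycard values were 0. It was the only such value among 32 groups examined, and chance marks about 1 in 20 groups. Without it the Nlrp3 difference is among the values for libraries left out one at a time, which ran from 0.09 to 0.42 on the log2 scale.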

How the results depend on the processing

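Control depth limits these comparisons: 3 control libraries held 12 or fewer cells. Over all gated cells no member was called in any setting tried except Casp4 without the low-count filter.

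Counts of called genes moved more than the members did. Over all gated cells, 125 genes were called, and 0 when scaled to all transcripts, 7776 without the low-count filter (181 higher, 7595 lower, median over all genes -0.99), 7 in the dated set, 6 in the G1 set, 4 without cells of very high totals, 3 in libraries of at least 20 cells, and 41 (without control replicate 1) to 166 (without aGVHD replicate 1) leaving out 1 library. With scaling factors from all genes, the first choice, 86 were higher and 3 lower, against 61 and 64; with the filter by the smaller group, also the first choice, 69 and 80, and with both 131 and 4. In neutrophil-like cells 0 were called, but 3 at a minimum of 250 transcripts, 1 in the G1 set, 1 with named genes only, 1 at resolution 0.5, and 0 to 2 leaving out 1 library. By Lcn2 status 33 were called, 1480 without the filter, 21 with the filter by the smaller group, 102 at 1000 transcripts, 102 without thinning, 61 with at least 3 cells of each status, 54 with a second seed, 184 with whole-cell levels, 1 without the granule-gene cluster, also with whole-cell levels, and 18 to 32 leaving out 1 library. Here factors from all genes gave 10 higher and 29 lower, against 22 and 11. The cause of these shifts was not tested.

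Values near 0 changed sign. Over all gated cells Gsdmd (0.05) was -0.0099 in the G1 set, -0.020 with named genes, -0.030 in libraries of at least 20 cells and -0.090 to 0.21 leaving out 1 library; Nlrp3 was -0.13 without cells of very high totals; and Aim2 was -0.061 to 0.33 leaving out 1 library. In neutrophil-like cells Ninj1 (-0.03) was 0.20 with factors from all genes, with either filter, 0.025 in the dated set, 0.080 with at least 5 cells, 0.12 without the granule-gene cluster and 0.12 at resolution 1.5. Mpeg1 (-0.03) was 0.00084 scaled to all transcripts, 0.21 with factors from all genes, with either filter, 0.24 in the G1 set, 0.066 with at least 5 cells, 0.088 without the granule-gene cluster and 0.10 at resolution 1.5. Leaving out 1 library, Ninj1 ran from -0.092 to 0.052 and Mpeg1 from -0.10 to 0.060. Gsdmd was 0.0012 with factors from all genes, and Casp4 -0.21 in the G1 set. Nlrp3 by Lcn2 status (0.02) was -0.29 with factors from all genes, -0.037 at 1000 transcripts, -0.37 without thinning, -0.36 with a second seed, -0.34 with whole-cell levels and -0.26 to 0.038 leaving out 1 library.

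Title numbers were used as a replicate block over dated libraries. Of 6 pairs with a shared number, 4 had correlated deviations over 0.1 (range -0.04 to 0.25), and 2 of 6 correlated best with their own number. So few pairs cannot settle whether the numbers pair the libraries. The fit with the block gave 46 calls among 3034 genes tested over all gated cells, against 7 among 1646 in the same libraries without it, and 23 among 1620 in neutrophil-like cells, against 0 among 1068; the genes past the filter changed with the block, so the move cannot be put down to the block alone. In that fit of neutrophil-like cells Gsdmd was 0.028.

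Ifi204, Il1rn and Gbp7 kept their sign over all gated cells in the settings tried, but missed the threshold scaled to all transcripts, in each set alone, without cells of very high totals and in libraries of at least 20 cells. Gbp7 and Il1rn also missed it without control replicate 1 (0.89 and 0.54), Ifi204 in limma without voom weights (0.91), and Ifi204 and Il1rn under the block. By Lcn2 status, Cd14 missed it with factors from all genes (0.40), with whole-cell levels (0.47), with at least 3 cells of each status (0.48) and without aGVHD replicate 1 or 3. There Il1rn missed it scaled to all transcripts, in limma without voom weights, with the filter by the smaller group and without aGVHD replicate 7. Without the filter, Gsdmd was called by Lcn2 status, in a fit whose median over all genes was 0.97.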
